A study of Mus musculus with 24 samples.

Results

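The genes described here are 10 transcripts typical of the meninges and of fibroblasts, measured in ribosome-bound and unbound RNA of mouse cerebral cortex. They are Dcn, Lum, Fmod, Abi3bp, Col1a1, Col1a2, Col3a1, Igf2, Igfbp2 and Slc13a4. Every probe set that the array annotation pairs with exactly 1 of these symbols was taken, which gave 22 probe sets, and where a gene had several, the brightest on average over all 24 arrays stands for it. All 10 genes were found and tested among 18193 genes, with no filter on low values. Igfbp2, Lum and Slc13a4 had 1 probe set each, and the other 7 genes had several.

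The meninges are the membranes around the brain, and their fibroblasts secrete collagen, small proteoglycans that coat collagen fibrils, and growth factors such as insulin-like growth factor 2. Collagen chains are modified in the endoplasmic reticulum, cut outside the cell and crosslinked into fibrils, whose spacing the small leucine-rich proteoglycans help to set. Insulin-like growth factors are carried by binding proteins, and several of these genes are also known from the choroid plexus, which secretes cerebrospinal fluid, or from blood vessel walls.

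The mice were adult heterozygotes for a transgene in which the promoter of Aldh1l1, a gene of astrocytes, drives ribosomal protein L10a fused to eGFP. All animals carried it, and all groups are cerebral cortex. The bound fraction is RNA pulled down with the tagged ribosomes, 1 array for each of 18 animals, and the unbound fraction is RNA of the supernatant, 2 pools of 3 animals for each state (animals 1 to 3 and animals 4 to 6). Sleep-deprived mice (6 bound arrays, 2 unbound pools) were kept awake in the light phase for 4 h with objects they did not know. Waking mice (6 and 2) were killed in the dark phase, between 3 and 5 am, after more than 1 h awake and with at least 70% of the preceding 6 to 7 h awake. Sleeping mice (6 and 2) were killed in the light phase, between 3 and 5 pm, after more than 45 min asleep and with at least 75% of the preceding 6 to 7 h asleep. Waking therefore differs from sleep and from sleep deprivation in time of day too, and the bound and unbound RNA were purified with different kits. More exact ages are not given in the sources used here.

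Values are log2 RMA levels, and a level is not compared between genes because probes differ in response. All log2 differences and folds are given relative to the median difference of all genes. That median was 0.16 for bound over unbound, and 0.22, 0.06 and 0.21 for the same in sleep deprivation, waking and sleep. It was 0.11, 0.09 and 0.02 for sleep deprivation over sleep, waking over sleep and sleep deprivation over waking in bound RNA, and 0.18, 0.30 and -0.12 for the same in unbound RNA. For the difference between fractions in the waking effect and in the sleep deprivation effect it was -0.22 and -0.06. Called means an adjusted p under 0.05 in limma with Benjamini-Hochberg adjustment over all genes, computed before the median was taken off. Exactly equal values occurred in all 48 pairs of arrays of the same group and in 0 of 228 pairs of different groups, so the groups may have been normalized in separate runs, and run and group cannot be told apart. As checks on the pull-down, Aldh1l1 was 13.2-fold (adjusted p = 7.44e-18) and Rpl10a, the gene of the tagged protein, 2.24-fold higher in bound than in unbound RNA (adjusted p = 1.5e-06).

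Promoter sequence was available from RefSeq (GRCm38.p6) for 6 of the 10 genes, in 10 windows. Shown are the 250 bases before the start of Igf2 and Slc13a4, whose levels followed each other closely from animal to animal, and of Col1a2, for comparison with another gene of chromosome 6. Capitals mark matches to a pair of short motifs, read on both strands: CCAAT, known as the CCAAT box, and the GC box letters GGGCGG. No base belongs to both.
Slc13a4, chr6:35308127-35308376, minus strand: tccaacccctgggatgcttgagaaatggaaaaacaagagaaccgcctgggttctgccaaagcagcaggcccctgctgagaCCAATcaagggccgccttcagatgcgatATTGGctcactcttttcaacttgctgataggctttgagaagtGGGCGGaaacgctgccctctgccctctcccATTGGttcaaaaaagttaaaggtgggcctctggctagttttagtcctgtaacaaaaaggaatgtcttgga
Igf2, chr7:142657497-142657746, minus strand, the window with the most matches among 4 start sites: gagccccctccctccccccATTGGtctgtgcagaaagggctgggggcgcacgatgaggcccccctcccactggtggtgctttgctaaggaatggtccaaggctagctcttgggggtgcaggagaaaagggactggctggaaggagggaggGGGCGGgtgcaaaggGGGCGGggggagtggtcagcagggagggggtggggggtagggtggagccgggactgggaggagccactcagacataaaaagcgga
Col1a2, chr6:4505368-4505617, plus strand: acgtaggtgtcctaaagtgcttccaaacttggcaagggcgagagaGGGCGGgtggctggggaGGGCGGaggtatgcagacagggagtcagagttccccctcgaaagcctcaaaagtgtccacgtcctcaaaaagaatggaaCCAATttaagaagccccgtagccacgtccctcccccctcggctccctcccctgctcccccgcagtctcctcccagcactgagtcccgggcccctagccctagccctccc
The Slc13a4 window holds the CCAAT box 3 times and the GC box once, and each of the other 2 windows holds the CCAAT box once and the GC box 2 times. Of all 32851 windows of the same length in the table, 33.8% hold the CCAAT box and 32.7% the GC box. The TATA box letters TATAAA were searched on both strands as well. They are in none of the 3 windows shown and in 12.4% of all windows, and among the windows of the 10 genes they occur in that of Col3a1, 117 bases before the start.

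Bound RNA held more of most of these transcripts than unbound RNA. Of the 10 genes, 8 were higher and 1 was lower in the bound fraction, against 42.2% of all genes higher and 27.2% lower, so that 69.4% of all genes were called in 1 direction or the other. The median difference of the 10 was log2 1.24. In such bulk samples fewer cells of a type and less RNA per cell cannot be told apart. All 18 bound arrays lay above all 6 unbound arrays in 4 genes, Lum, Col1a1, Igfbp2 and Slc13a4, against 17.2% of all genes.

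Dcn (chr10:97479500-97518163) encodes decorin, a small leucine-rich proteoglycan that binds collagen fibrils. Its level was 7.08, 8.02 and 9.44 (lowest, median and highest of 6) in bound RNA after sleep deprivation, 6.68, 8.07 and 9.01 in waking and 7.62, 8.26 and 9.39 in sleep. The unbound pools were at 7.40 and 7.21 in sleep deprivation, 6.84 and 7.61 in waking and 6.61 and 7.41 in sleep. The groups overlapped, with 14 of 18 bound arrays above every pool. Dcn was 1.77-fold higher in bound RNA (log2 0.82 ± 0.34, SE, adjusted p = 0.0154). The call was lost in animals 4 to 6 alone (-0.07 ± 0.24, adjusted p = 0.697) and held in animals 1 to 3 alone (1.71 ± 0.31, adjusted p = 0.00057). In all, 7 of 36 alternatives lost it. Among them were quantile normalization repeated (0.69, adjusted p = 0.0892), arrays centred on their median (0.82, adjusted p = 0.0907) and the mean of its probe sets (0.26, adjusted p = 0.0952). It was also lost without the sleep pool (0.68, adjusted p = 0.0619) or the waking pool (0.68, adjusted p = 0.0609) of animals 1 to 3, and a second, dimmer probe set gave -0.35 (adjusted p = 0.0922).

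Lum (chr10:97565501-97572703) encodes lumican, a relative of decorin that also binds fibrils. It was at 3.30, 4.03 and 5.25 in bound RNA after sleep deprivation, 3.71, 4.83 and 5.20 in waking and 4.02, 4.87 and 6.84 in sleep. The unbound pools held 2.74 and 2.98 in sleep deprivation, 2.63 and 2.32 in waking and 2.97 and 2.43 in sleep. No bound array reached down to an unbound one. The difference was log2 1.80 ± 0.31 (adjusted p = 8.28e-06). Lum was dim, with a mean level at percentile 17.3 of all genes, and whether the pools were above background was not tested, as the table used here gives no detection call, so its size as a fold is uncertain.

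Fmod (chr1:134037254-134048280) encodes fibromodulin, another fibril-binding proteoglycan, and its 6 probe sets did not behave alike. The one with the highest mean has the suffix x, which the array's maker gives to probe sets whose probes can match other transcripts. On it the bound levels were 9.38, 9.79 and 11.02 after sleep deprivation, 8.83, 9.70 and 10.09 in waking and 9.60, 10.22 and 10.44 in sleep. The unbound pools were at 10.01 and 8.10 in sleep deprivation, 8.26 and 11.04 in waking and 6.87 and 6.79 in sleep, so the waking pool of animals 4 to 6 exceeded every bound array. Bound over unbound was 2.39-fold (log2 1.25 ± 0.32, adjusted p = 0.000454). The only probe set without that suffix ran from 5.79 to 8.22 in bound and from 5.01 to 6.20 in unbound arrays, with 16 of 18 bound arrays above every pool. It gave nearly the same difference (log2 1.25 ± 0.27, adjusted p = 8.14e-05) and was added as an alternative once the values were known.

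Abi3bp (chr16:56477801-56690135), which encodes a matrix protein also called TARSH, was the member that ran the other way. Its bound levels were 2.89, 3.13 and 3.69 after sleep deprivation, 2.00, 2.13 and 2.76 in waking and 3.07, 3.70 and 4.26 in sleep. The pools were at 4.46 and 4.34 in sleep deprivation, 4.08 and 3.51 in waking and 3.35 and 3.63 in sleep. The groups overlapped only in sleep. Abi3bp was lower in bound than in unbound RNA (log2 -1.02 ± 0.15, adjusted p = 3.05e-05), and its second probe set gave -0.85 (adjusted p = 3.16e-05). Its mean level was at percentile 7.96 of all genes, and whether any of these levels was above background was not tested, so the size of its differences as folds is uncertain here and between states.

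The fibrillar collagen chains differed in how far they followed. Col1a1 (chr11:94936224-94953042) encodes the first chain of type I collagen. Its bound levels were 6.41, 7.23 and 7.97 after sleep deprivation, 6.78, 7.12 and 7.95 in waking and 6.80, 7.64 and 8.07 in sleep, and its pools 5.81 and 5.37, 6.27 and 6.36, and 5.98 and 5.77 in the same states. No bound array overlapped a pool. Col1a1 was 2.33-fold higher in bound RNA (log2 1.22 ± 0.21, adjusted p = 4.63e-06), while its second probe set gave 0.16 (adjusted p = 0.32).

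Col1a2 (chr6:4505618-4541543) encodes the other type I chain. It was at 7.77, 8.48 and 9.30 in bound RNA after sleep deprivation, 8.03, 8.45 and 8.57 in waking and 8.18, 8.39 and 9.41 in sleep. The pools had 8.43 and 7.96 in sleep deprivation, 7.24 and 7.36 in waking and 6.38 and 7.18 in sleep, so the groups overlapped in sleep deprivation only. The gene was 1.85-fold higher (log2 0.88 ± 0.20, adjusted p = 7.33e-05), and the second probe set gave 0.27 (adjusted p = 0.115).

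Col3a1 (chr1:45311538-45349706), the chain of type III collagen, did not pass. It was at 4.41, 5.12 and 5.64 in bound RNA after sleep deprivation, 4.22, 5.24 and 5.66 in waking and 4.82, 5.33 and 5.57 in sleep. The pools were at 4.45 and 3.69, 5.50 and 5.40, and 4.58 and 4.89 in these states, and bound and unbound arrays overlapped. The difference was log2 0.22 ± 0.20 (95% interval -0.20 to 0.64, adjusted p = 0.101). Its second probe set, dimmer still, gave -0.39 (adjusted p = 0.00331), and without waking animal 1 the difference passed (0.28, adjusted p = 0.0403).

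The growth factor gene and the gene of its carrier were both higher in bound RNA. Igf2 (chr7:142650768-142666816) encodes insulin-like growth factor 2. Its bound levels were 10.36, 11.28 and 11.86 after sleep deprivation, 9.84, 11.10 and 11.97 in waking and 11.03, 11.45 and 11.88 in sleep, and its pools 9.94 and 9.45, 10.13 and 9.59, and 9.58 and 9.99. Of 18 bound arrays, 17 exceeded every pool, the exception being waking animal 6. Igf2 was 2.47-fold higher (log2 1.31 ± 0.26, adjusted p = 3.15e-05), and its second probe set gave 1.10 (adjusted p = 0.000569).

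Igfbp2 (chr1:72824480-72852474) encodes a binding protein of insulin-like growth factors that astrocytes also make. It was at 9.97, 11.12 and 12.02 in bound RNA after sleep deprivation, 10.16, 11.13 and 12.18 in waking and 10.35, 11.11 and 11.82 in sleep, against pools of 6.51 and 6.35, 7.00 and 7.24, and 6.58 and 7.43. The lowest bound array lay more than 2 log2 units above the highest pool. At 16.9-fold (log2 4.08 ± 0.36, adjusted p = 1.06e-09) it had the largest difference of the 10 genes.

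Slc13a4 (chr6:35267953-35308126) encodes a sodium-coupled sulfate transporter. Its bound levels were 7.72, 8.52 and 9.28 after sleep deprivation, 8.19, 8.57 and 9.21 in waking and 8.61, 8.78 and 9.09 in sleep, and its pools 6.54 and 5.76, 5.64 and 6.23, and 6.93 and 6.45. There was no overlap in any state. Slc13a4 was 4.73-fold higher in bound RNA (log2 2.24 ± 0.20, adjusted p = 5.4e-10).

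**Figure D1:**
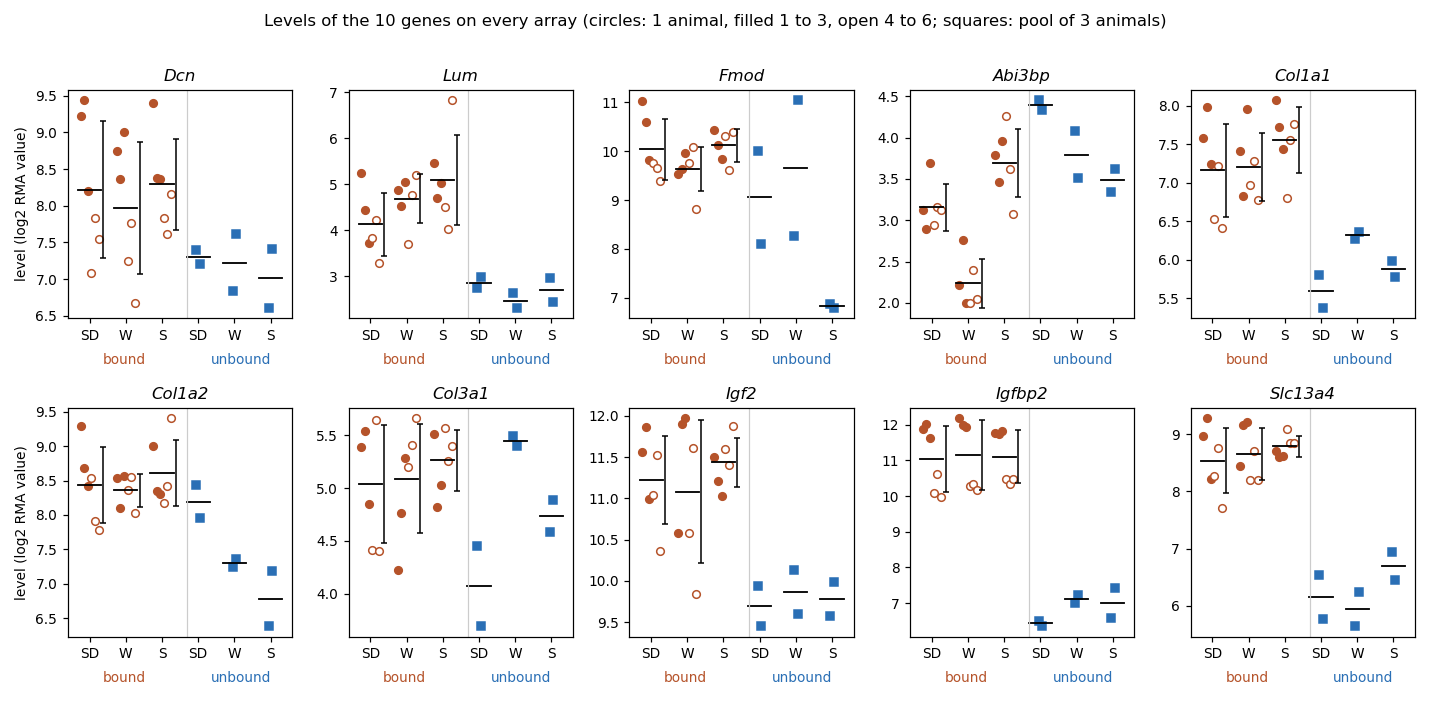
Log2 RMA level of each of the 10 genes on every array, in sleep deprivation (SD), waking (W) and sleep (S), bound RNA on the left of each panel and unbound pools on the right; bars are means, error bars the SD of 6 bound arrays. Igfbp2 and Slc13a4 lie above all pools in every state, Abi3bp lies below the pools except in sleep, and the Igfbp2 levels of animals 1 to 3 (filled) and 4 to 6 (open) do not overlap.

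State by state, each comparison had 6 bound arrays against 2 pools. After sleep deprivation 5 of the 10 genes were higher and 1 lower (33.9% and 19.1% of all genes, 53.0% in all), in waking 6 and 1 (27.1% and 23.1%, 50.3% in all), and in sleep 7 and 0 (33.7% and 18.6%, 52.3% in all). Igfbp2 (log2 4.38, 3.96 and 3.89), Slc13a4 (2.17, 2.65 and 1.89), Igf2 (1.31, 1.15 and 1.44) and Col1a1 (1.35, 0.82 and 1.48) were called higher in all 3 states, in the order sleep deprivation, waking, sleep. In waking the call for Col1a1 (adjusted p = 0.0446) was lost in 17 of 36 alternatives and that for Igf2 (adjusted p = 0.0268) in 9 of 37. Without the waking pool of animals 4 to 6 they stood at 0.89 (adjusted p = 0.142) and 0.91 (adjusted p = 0.225), and without that of animals 1 to 3 at 0.75 (adjusted p = 0.184) and 1.40 (adjusted p = 0.0554). Leaving out waking animal 3 lost both as well (0.68 and 0.99, adjusted p = 0.0831 and 0.0508). The Igf2 call was also lost in animals 4 to 6 alone after sleep deprivation (1.26, adjusted p = 0.0789) and in sleep (1.42, adjusted p = 0.064), without the sleep deprivation pool of animals 4 to 6 (1.10, adjusted p = 0.0947) and without the sleep pool of animals 1 to 3 (1.22, adjusted p = 0.0626). On its second probe set Col1a1 was called in no state (0.49, 0.14 and -0.17, adjusted p = 0.198, 0.758 and 0.999).

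Lum was at 1.05 after sleep deprivation (adjusted p = 0.0502, called in 11 of 36 alternatives), and was called in waking (log2 2.16, adjusted p = 0.0016) and in sleep (2.19, adjusted p = 0.000756). Of 36 alternatives 1 lost each of these 2 calls, animals 4 to 6 alone, which leaves 1 pool a state. Over the alternatives Lum ran from 2.03 to 2.35 in waking and from 1.84 to 2.47 in sleep. Col1a2 was at 0.03 after sleep deprivation (adjusted p = 0.566) and was called in waking (1.00, adjusted p = 0.0129) and in sleep (1.62, adjusted p = 0.000126), though in waking not without either pool (1.08 and 0.91, adjusted p = 0.063 and 0.094). Col1a2 on its second probe set was called neither in waking nor in sleep (0.43 in sleep, adjusted p = 0.2). On its brightest probe set Fmod was called in sleep, where both pools were low (log2 3.08, adjusted p = 3.67e-05), with 0.76 after sleep deprivation (adjusted p = 0.138) and -0.09 in waking (adjusted p = 0.977). The waking value joins opposite ones: it was -1.57 in animals 4 to 6 alone (adjusted p = 0.0351) and 1.40 in animals 1 to 3 alone (adjusted p = 0.0164). After sleep deprivation Fmod was called on the probe set without the suffix x (1.39, adjusted p = 0.00621), on the mean of probe sets (1.13, adjusted p = 0.00984), in animals 4 to 6 alone (1.23, adjusted p = 0.0323) and without the pool of animals 1 to 3 (1.68, adjusted p = 0.0264). Col3a1 was called higher after sleep deprivation (0.75, adjusted p = 0.025), but 8 of 36 alternatives changed the call. It was not called with quantile normalization repeated (0.77, adjusted p = 0.0724), with arrays centred on their median (0.75, adjusted p = 0.163), on the mean of its probe sets (0.12, adjusted p = 0.176) or without the sleep deprivation pool of animals 4 to 6 (0.40, adjusted p = 0.324), and its second probe set was called lower (-0.55, adjusted p = 0.0253). Abi3bp was lower after sleep deprivation (log2 -1.45, adjusted p = 0.000452), though not on its second probe set (-0.42, adjusted p = 0.402), and in waking (-1.62, adjusted p = 4.21e-05), and in sleep it stood at 0.00 (95% interval -0.54 to 0.54). Dcn passed in none of the 3 states singly (0.70, 0.68 and 1.07). Over the alternatives these values ran from 0.01 to 1.37, from -0.78 to 1.83 and from -0.39 to 1.91. In sleep Dcn passed with each pool and the bound arrays of its animals as a block (adjusted p = 0.0316). It also passed there with array weights, with the set of animals as a term and with the arrays of that state only.

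**Figure D2:**
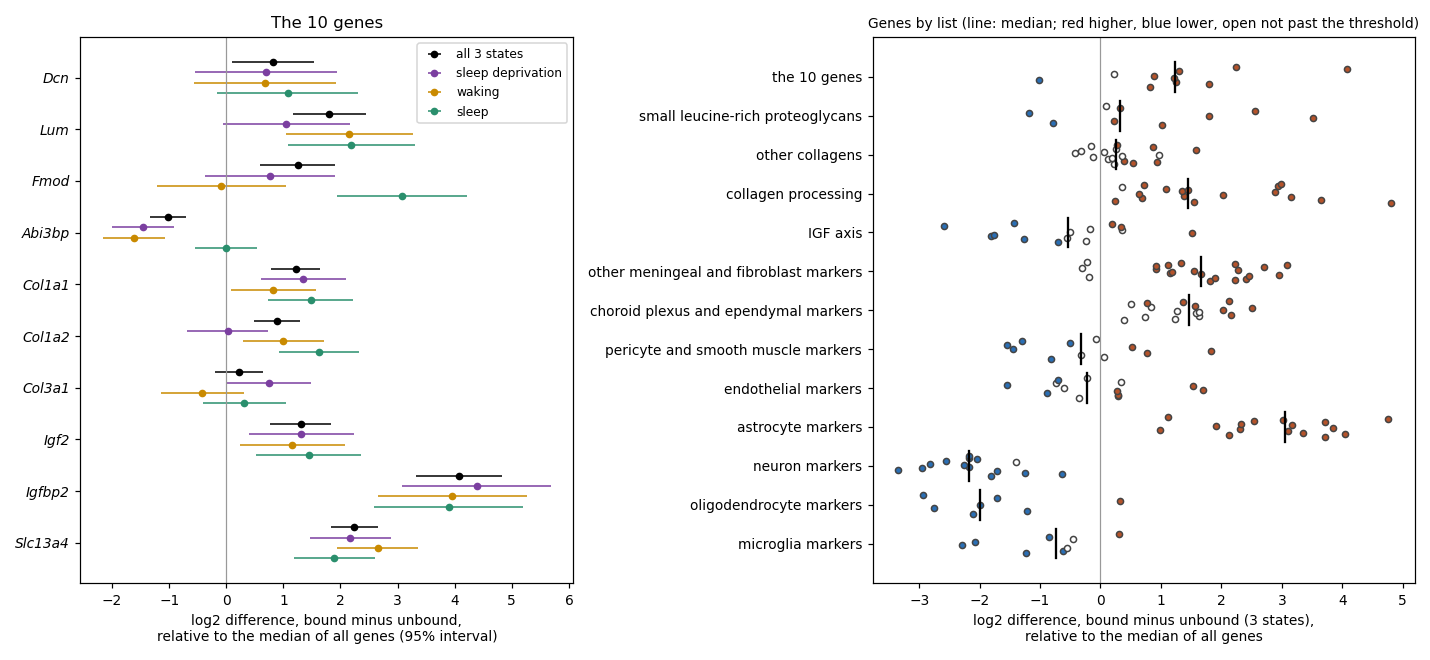
Left, log2 difference of bound minus unbound RNA for each of the 10 genes with 95% intervals, over all 3 states and in each; right, the same over all states for every measured gene of 13 lists. The 10 genes have a median of 1.24, near those of the other meningeal list (1.66) and of the choroid plexus and ependymal list (1.46), against 3.06 for astrocyte markers and -2.17 for neuron markers.

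Genes of collagen processing, and other genes typical of meningeal fibroblasts, were also mostly higher in bound RNA, while the other collagen genes were called higher in a share near that of all genes (42.2% higher, 27.2% lower). Of 17 genes of collagen processing, 16 were higher and none lower (median log2 1.44). They included the collagen chaperone gene Serpinh1 (4.80 ± 0.26), the prolyl hydroxylase gene P4ha3 (3.65 ± 0.22) and the lysyl hydroxylase gene Plod1 (3.15 ± 0.45), and at the low end P4ha2 (0.24 ± 0.17), P3h1 (0.64 ± 0.09) and P4hb (0.69 ± 0.10). P4ha2 was called before the median difference of 0.16 was taken off, so its call is not a test of the 0.24. Of 9 further small leucine-rich proteoglycan genes, 6 were higher and 2 lower (median 0.32): Prelp (3.51 ± 0.29), Ogn (2.55 ± 0.36) and Omd (1.79 ± 0.36) led the higher ones, and Epyc (-1.19 ± 0.32) and Aspn (-0.79 ± 0.08) were the lower ones. Of 17 other collagen genes, 6 were higher and none lower (median 0.26), with Col16a1 (1.58 ± 0.25), Col5a2 (0.93 ± 0.23) and Col4a2 (0.87 ± 0.34) the largest. Of 21 other meningeal and fibroblast markers, 18 were higher and none lower, with the secreted repeat protein gene Islr (3.08 ± 0.28), the forkhead factor gene Foxc1 (2.96 ± 0.38) and the fibulin gene Fbln1 (2.70 ± 0.20) in front. The mean level of this list did not overlap between the fractions, at 6.67 to 7.64 on bound and 5.30 to 5.64 on unbound arrays.

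The insulin-like growth factor genes did not move as 1 group. Of 14 other genes of this axis, 3 were higher and 6 lower (median -0.54). Igfbp5, another binding protein gene, was higher (1.51 ± 0.15), as were Igf2bp1 (0.33 ± 0.12) and Pappa, whose protease cuts binding proteins (0.19 ± 0.11). The call of Pappa, too, was made before the median difference of 0.16 was taken off and is not a test of the 0.19. The RNA-binding protein gene Igf2bp3 (-2.59 ± 0.26) and the binding protein genes Igfbp3 (-1.80 ± 0.17) and Igfbp4 (-1.77 ± 0.24) were the lowest.

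Markers of other cells differed in direction, again beside 42.2% of all genes higher and 27.2% lower. All 16 choroid plexus and ependymal markers lay above the median gene and 7 were higher, led by Calml4 (2.51 ± 0.95), the transcription factor gene Otx2 (2.15 ± 0.70) and Rarres2 (2.13 ± 0.11). The brightest of them, the transthyretin gene Ttr, ran from 8.99 to 14.30 over the bound arrays (median 13.93) and from 8.24 to 13.47 over the pools. The mean level of this list ran from 5.59 to 9.25 over the bound arrays and from 5.03 to 6.55 over the pools, and its part in the bound over unbound differences of the 10 genes was not tested. Its relation to their levels within bound RNA is given with the array-to-array values. Of 11 pericyte and smooth muscle markers 3 were higher and 5 lower (median -0.33), from Pdgfrb (1.84 ± 0.18) to the channel gene Kcnj8 (-1.55 ± 0.14), and their mean level was 5.62 to 6.03 on bound and 5.80 to 6.27 on unbound arrays. Of 13 endothelial markers 4 were higher and 3 lower (median -0.22). All 16 astrocyte markers were higher. Bound RNA held less of 13 of 14 neuron markers. The 7 oligodendrocyte markers gave 1 higher and 6 lower, and the 8 microglia markers 1 and 5.

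The states were then compared within bound RNA, to see whether these transcripts differ between sleep and wakefulness. After sleep deprivation none of the 10 genes was called against sleep, where limma called 14.3% of all genes, 12.3% higher and 2.02% lower; at an unadjusted p under 0.05 there were 2. All 10 lay below the median gene, with a median of log2 -0.33 and a range from -1.08 for Lum to -0.18 for Dcn. In waking against sleep 1 gene, Abi3bp, was called, against 11.2% of all genes, 9.07% higher and 2.14% lower. All 10 again lay below the median gene, from -1.55 for Abi3bp to -0.05 for Igfbp2, with a median of -0.43; both comparisons use the same sleep arrays. Between sleep deprivation and waking, Abi3bp was again the 1 gene called (6.84% of all genes, 4.17% higher and 2.67% lower), and 5 of the 10 lay above the median gene.

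Against sleep, Abi3bp was lower in waking (log2 difference -1.55 ± 0.19, adjusted p = 8.43e-05), and all 6 waking arrays (2.00 to 2.76) lay below all 6 sleep arrays (3.07 to 4.26). It kept the call in animals 4 to 6 alone (-1.60, adjusted p = 0.0278) and in animals 1 to 3 alone (-1.50, adjusted p = 0.022), and its second probe set gave -0.82 (adjusted p = 0.00332). After sleep deprivation it was higher than in waking (log2 0.90 ± 0.19, adjusted p = 0.00533), with no overlap of the arrays. That call was lost on the second probe set (0.43, adjusted p = 0.0691) and in each set of animals alone (0.90 in animals 4 to 6, adjusted p = 0.137, and 0.89 in animals 1 to 3, adjusted p = 0.0917). Against sleep it was at -0.65 ± 0.19 after sleep deprivation (adjusted p = 0.0682), and 6 of 30 alternatives called it lower. They were the set of animals as a term (-0.65, adjusted p = 0.0465), quantile normalization repeated (-0.73, adjusted p = 0.0163), centring (-0.65, adjusted p = 0.0338), the mean of probe sets (-0.52, adjusted p = 0.0459), and leaving out sleep animal 6 (-0.77, adjusted p = 0.0203) or sleep-deprived animal 3 (-0.76, adjusted p = 0.029).

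None of the other 9 genes was called in waking against sleep or after sleep deprivation. The 95% intervals of waking over sleep ran from -1.35 to 0.52 for Dcn, from -1.13 to -0.02 for Fmod (-0.58, adjusted p = 0.295), from -1.01 to 0.12 for Col1a1 and from -1.14 to 0.25 for Igf2. For Slc13a4 the interval was -0.73 to 0.27, and for Igfbp2 it was -1.05 to 0.95. After sleep deprivation Lum was at -1.08 against sleep (interval -1.93 to -0.23, adjusted p = 0.128).

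Beside these values, the mean level of the choroid plexus and ependymal list was 5.59, 7.07 and 8.85 (lowest, median, highest) after sleep deprivation, 5.68, 7.51 and 8.86 in waking and 6.07, 8.61 and 9.25 in sleep. That of the other meningeal list was 7.03, 7.19 and 7.62, against 6.67, 7.12 and 7.40, and 7.00, 7.08 and 7.64 in the same states. In waking over sleep none of the 21 other meningeal markers and none of the 16 choroid and ependymal markers was called. Among the collagen genes Col5a2 (log2 1.01, adjusted p = 0.0229) and Col15a1 (0.49, adjusted p = 0.0187) were called higher in waking, as were 9.07% of all genes. So were Lox, the gene of a collagen crosslinking enzyme (1.23, adjusted p = 0.0105), Plod2 (0.98, adjusted p = 0.0229), Kera (0.30, adjusted p = 0.0216) and Igf2bp1 (0.60, adjusted p = 0.0038). Lox rose after sleep deprivation too (1.33, adjusted p = 0.00437), with Col11a1 (0.98, adjusted p = 0.000375), Col12a1 (0.63, adjusted p = 0.0392), Col5a3 (0.54, adjusted p = 0.00237), Col14a1 (0.26, adjusted p = 0.0293), Pappa (0.49, adjusted p = 0.00744), Igf2bp1 (0.33, adjusted p = 0.0471) and Fbln1 (0.63, adjusted p = 0.0425). None of the matrix, growth factor or meningeal lists had a gene called lower against sleep. Of all genes only 2.14% were called lower in waking and 2.02% after sleep deprivation, so few such calls would be found in lists of this size.

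**Figure D3:**
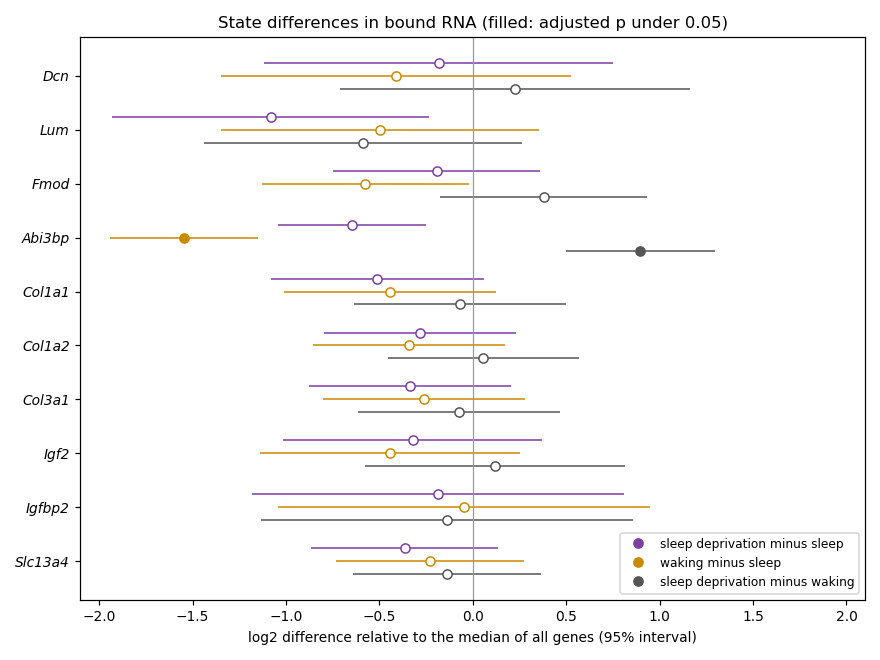
Differences between states in bound RNA for each of the 10 genes, as log2 relative to the median of all genes with 95% intervals; filled points passed the test. Abi3bp is the 1 gene with filled points, lower in waking than in sleep (-1.55) and higher after sleep deprivation than in waking (0.90).

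In unbound RNA none of the 10 genes was called in any pair of states by limma, with 2 pools in each state. At an unadjusted p under 0.05 there were 3 in sleep deprivation over sleep, 2 in waking over sleep and 4 in sleep deprivation over waking, and of all genes 1.87% (1.42% higher, 0.451% lower), 6.32% (5.71% and 0.605%) and 0.759% (0.242% and 0.517%) were called. The 3 largest differences were Fmod in waking over sleep (log2 2.52 ± 0.97, adjusted p = 0.111), Col3a1 in sleep deprivation over waking (-1.25 ± 0.27, adjusted p = 0.0722) and Fmod in sleep deprivation over sleep (2.05 ± 0.97, adjusted p = 0.214). Col1a2 in sleep deprivation over sleep was at 1.23 ± 0.30 (adjusted p = 0.0702). With the spread taken over all 24 arrays, Fmod and Col1a2 were called, 1 gene in each comparison.

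Whether a state effect differed between bound and unbound RNA was tested as an interaction. The waking effect differed in 2 of the 10 genes, both lower in bound RNA, against 5.60% of all genes (1.89% higher, 3.71% lower). The sleep deprivation effect differed in 1, also lower, against 4.89% (2.91% higher, 1.98% lower). For Abi3bp the effect in bound minus that in unbound RNA was log2 -1.55 ± 0.37 in waking (adjusted p = 0.00619) and -1.38 ± 0.37 after sleep deprivation (adjusted p = 0.0234). Over the alternatives these values ran from -1.93 to -1.17 and from -1.54 to -0.01. Neither call held in either set of animals alone, where each state has 1 pool, and that after sleep deprivation was lost on the mean of probe sets. The first call was lost without the waking pool (-1.27, adjusted p = 0.066) or the sleep pool (-1.39, adjusted p = 0.0501) of animals 1 to 3. The other was lost without any 1 of the 4 pools of its states (-1.54 to -1.23, adjusted p = 0.058 to 0.146), and on the second probe set the value was -0.01 (adjusted p = 0.961).

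For Fmod the difference in waking was -3.09 ± 0.77 (adjusted p = 0.0137). It rests on the pools: the unbound level was 8.26 and 11.04 in waking, against 6.87 and 6.79 in sleep, while bound levels overlapped between these states. On all 5 probe sets with the suffix x the waking pool of animals 4 to 6 was the highest of the 6 pools, whereas on the probe set without it the waking pools were at 5.33 and 5.92 and the sleep pools at 5.45 and 5.35. That probe set gave -0.21 ± 0.66 for the same interaction (adjusted p = 0.813). On the brightest one the call was lost without the waking pool of animals 4 to 6 (-1.69, adjusted p = 0.182) and without the sleep pool of animals 4 to 6 or of animals 1 to 3 (-3.07 and -3.11, adjusted p = 0.0636 and 0.057). After sleep deprivation Fmod (-2.24, adjusted p = 0.0979) and Col1a2 (-1.52, adjusted p = 0.062) were not called. Both were called with each pool and the bound arrays of its animals as a block (adjusted p = 0.0451 and 0.0341), which raised the count of genes from 1 to 3.

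Bound arrays of animals 4 to 6 and of animals 1 to 3 differed in many genes, which concerns these 10 as well. The labels use the split only to form the unbound pools and give no reason for a difference, but 43.8% of all genes were called between the sets, 22.9% higher and 21.0% lower in animals 4 to 6. Of the 10 genes 3 were lower in animals 4 to 6 and none higher. Igfbp2 was at 10.30 ± 0.20 in animals 4 to 6, against 11.89 ± 0.17 in animals 1 to 3 (SD, n = 9 each), a log2 difference of -1.59 ± 0.09 (adjusted p = 5.9e-10 in limma). Dcn was at 7.53 ± 0.46, against 8.79 ± 0.49 (SD, n = 9 each), a difference of -1.27 ± 0.21 (adjusted p = 9.48e-05 in limma). In both genes all 9 arrays of animals 4 to 6 lay below all 9 of animals 1 to 3, as in 6.27% of all genes.

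Col1a1 was lower too (log2 -0.56 ± 0.18, adjusted p = 0.0208), with overlap. The other 7 ran from -0.37 for Fmod to 0.16 for Col3a1. On its probe set without the suffix x Fmod was called lower too (-0.77, adjusted p = 0.00625). Within each set Igfbp2 stayed far above the pools of the same animals (bound over unbound log2 3.11 ± 0.14 in animals 4 to 6 and 5.05 ± 0.11 in animals 1 to 3). Of the related lists, 6 of 17 collagen processing genes were lower and 1 higher in animals 4 to 6, with Plod1 (-1.76), Loxl1 (-1.46) and P4ha1 (-1.19) the lowest. Among small leucine-rich proteoglycans Ogn (-1.25), Omd (-1.24) and Prelp (-1.18) were lower and Bgn (0.66) higher. Of the other meningeal markers 7 were lower, first Foxc1 (-1.29), Slc22a8 (-1.03) and Mgp (-0.85), and 1, Ccdc80 (0.81), was higher.

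From animal to animal most of these genes varied together. With the mean of its state taken off each array, 39 of 45 pairs of the 10 genes had a positive Pearson correlation over the 18 bound arrays, with a median of 0.42 and a range from -0.40 to 0.88. By a permutation test with 100000 resamples, 13 of 45 pairs passed after Benjamini-Hochberg adjustment over the 45 pairs, all 13 positive. With the mean of each set of animals taken off too, 12 passed, 10 of them positive. The test shuffles the 18 deviations freely, although taking off the means ties them together. Its p-values are therefore too small, most of all with the set means off. When the 2 arrays farthest from the median were left out of each pair, 3 passed with 16 arrays, while 39 of 45 were still positive and the median was 0.37.

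Among pairs without Igfbp2 the closest was Igf2 and Slc13a4, with r = 0.88 and rho = 0.91 (adjusted permutation p = 0.00022 for each, the raw p of 1e-05 being the smallest the resamples can give). It held without the 2 farthest arrays (0.88), with the set means taken off (0.85), and within animals 4 to 6 (0.80) and animals 1 to 3 (0.91). Next among them were Dcn and Col1a1 (r = 0.81, rho = 0.83, adjusted permutation p = 0.00135 for each, 0.76 without the 2 farthest arrays, 0.71 with the set means off). Fmod and Col1a2 had r = 0.75 and rho = 0.76 (adjusted permutation p = 0.00394 and 0.00441, 0.65 without the 2 farthest). For Lum and Col1a2 r was 0.72 and rho 0.58 (adjusted permutation p = 0.0072 and 0.0426), but r was 0.42 without the 2 arrays farthest in Lum. With the set means off r was 0.69, and it was 0.62 within animals 4 to 6 and 0.92 within animals 1 to 3. Igfbp2 falls into separate clusters by set, so it is given within sets: with Dcn, r was 0.59 in animals 4 to 6 and 0.53 in animals 1 to 3. For Abi3bp r was -0.10 to the mean of the other 9 genes, where Dcn had 0.84, Fmod and Col1a1 0.78, Slc13a4 0.75 and Col3a1 0.26. With the set means off as well, these were -0.41 for Abi3bp and 0.62 for Col3a1. On that scale Col3a1 went with Slc13a4 (r = 0.76, rho = 0.73, adjusted permutation p of r = 0.00465), and Abi3bp ran against Col1a1 (r = -0.65, rho = -0.58, adjusted permutation p of r = 0.0206) and Col1a2 (r = -0.59, rho = -0.60, adjusted permutation p = 0.0426). As these p-values are too small with the set means off, the relations of Abi3bp are uncertain.

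**Figure D4:**
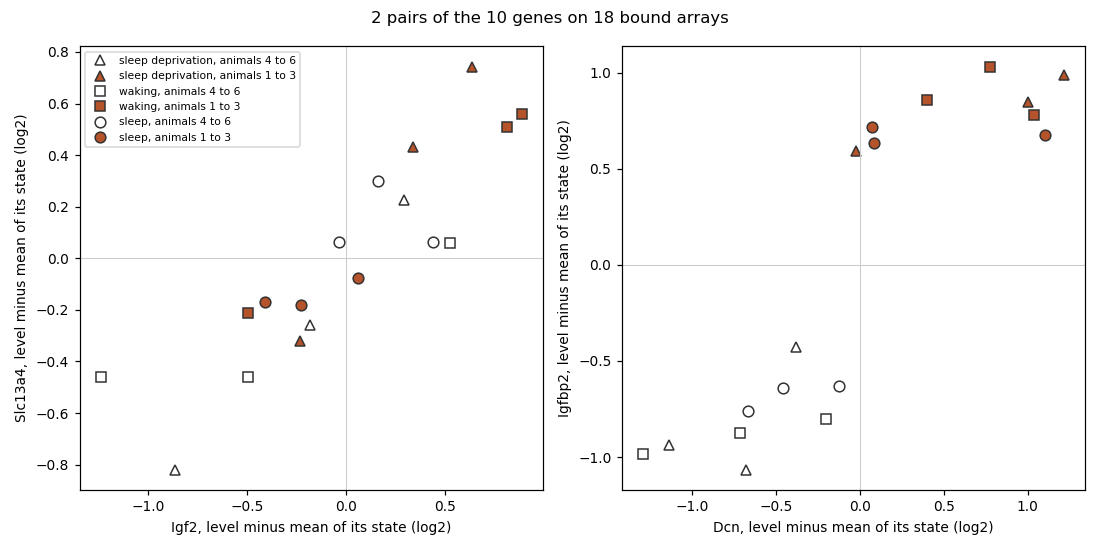
Level of 2 genes minus the mean of their state on each of the 18 bound arrays, Slc13a4 against Igf2 on the left and Igfbp2 against Dcn on the right; open symbols are animals 4 to 6 and filled ones animals 1 to 3. Slc13a4 follows Igf2 within both sets, while Igfbp2 forms 1 cluster for each set.

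The lowest Igf2 levels in bound RNA were those of waking animal 6 (9.84) and sleep-deprived animal 6 (10.36), and on both arrays the choroid plexus and ependymal list was low too (6.10 and 5.72). That list split the 18 bound arrays into 8 between 5.59 and 6.35 and 10 between 7.83 and 9.25, with 3 sleep-deprived, 3 waking and 2 sleep arrays among the 8 and 3 of the 8 from animals 4 to 6. Igf2 ran from 9.84 to 11.56 (median 10.79) on the 8 arrays and from 11.05 to 11.97 (median 11.60) on the 10. Slc13a4 ran from 7.72 to 8.97 (median 8.33) and from 8.28 to 9.28 (median 8.85), and Dcn from 6.68 to 9.39 (median 8.28) and from 7.08 to 9.44 (median 8.0).

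As the list forms separate clusters, its relation to the genes was computed within each, which leaves out the gap between them. With 8 and 10 arrays only very strong relations could pass. Differences of the genes between the clusters were not tested. Of the 20 relations none passed a permutation test after Benjamini-Hochberg adjustment, the smallest adjusted p being 0.42, for Lum on the 8 arrays (r = 0.85, rho = 0.50, raw permutation p = 0.021 and 0.213, adjusted 0.42 and 0.771, r = 0.74 without the 2 farthest arrays). Slc13a4 on the 8 arrays had r = 0.70 and rho = 0.50 (adjusted permutation p = 0.504 and 0.771), and Igf2 0.23 on the 8 and 0.26 on the 10.

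**Figure D5:**
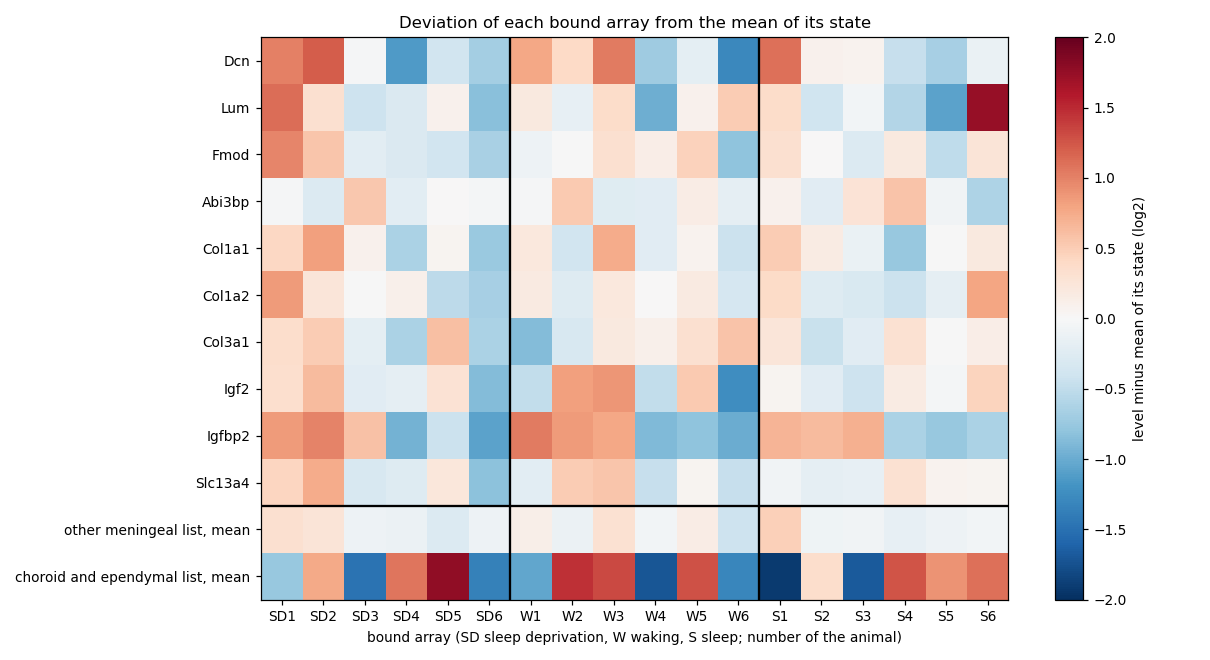
Level of each of the 10 genes, and mean level of 2 marker lists, on each bound array minus the mean of its state (log2; colours end at 2 units either way). Igfbp2 is above the mean of its state in animals 1 to 3 and below it in animals 4 to 6, Igf2 and Slc13a4 are below it in waking animal 6 and sleep-deprived animal 6, and the choroid and ependymal list changes by over 2 units between arrays of 1 state.

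Among genes at or above the median level, those whose deviations were most like the mean of the 10 were ranked over the 18 bound arrays, as a description of arrays that share animals and normalization. Mgp came first (r = 0.90, and 0.84 with the set means off); it encodes matrix Gla protein and is itself on the meningeal list. Apod, which encodes a lipid carrier, followed (0.88 and 0.74), then Btf3l4 (0.88 and 0.87), Crkl (0.85 and 0.78), Brd2 (0.85 and 0.70), Naa38 (0.84 and 0.58), Golph3 (0.84 and 0.72), Bin1 (0.83 and 0.64), Hgf, the gene of hepatocyte growth factor (0.83 and 0.70), and Prr5 (0.83 and 0.76). Over all 9091 genes of this kind the median was -0.16. By list it was 0.66 for 3 small leucine-rich proteoglycan genes, 0.55 for the 10 other meningeal markers bright enough to enter and 0.46 for 3 pericyte and smooth muscle markers. For 9 collagen processing genes it was 0.40, and for 7 genes of the insulin-like growth factor axis 0.39. Lower medians were 0.15 for 2 endothelial markers, 0.14 for 9 choroid and ependymal markers, 0.09 for 16 astrocyte markers and 0.08 for 2 microglia markers. Those of 5 oligodendrocyte and 14 neuron markers were -0.28 and -0.35. No gene of the other collagen list was bright enough to enter.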

How the data were processed

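Gene expression was measured on Affymetrix mouse genome arrays in 24 samples: ribosome-bound RNA of 18 mice and unbound RNA of 6 pools of 3 mice. The values are log2 intensities as deposited in a table of the whole series, and per the submitters' processing notes they were made with RMA, whose version and annotation are not given in the sources used here. All 24 columns of the table were matched to a sample. Whether RMA was run per group was not tested beyond the ties given above.

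Of 45101 probe sets, 64 controls were left out. The platform's annotation paired 34945 with 1 gene symbol, 932 with several and 9160 with none, and 34741 were found by Entrez ID among RefSeq's genes (GRCm38.p6), whose symbols and positions were used. Each of 18193 genes was read by its probe set of highest mean, with no filter on low values.

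Differences were tested with limma 3.58.1 (lmFit and eBayes, R 4.3.3) with Benjamini-Hochberg adjustment over all genes at 0.05. Comparisons of fractions, and interactions, used all 24 arrays with 6 group means; comparisons of states used the arrays of 1 fraction; animals 4 to 6 and 1 to 3 were compared in bound arrays with state as a term. The median difference of all genes was then taken off. Where a sentence gives an adjusted p with no other test named, it is from limma.

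Genes named are the 10, Aldh1l1 and Rpl10a, in each list up to 3 with the largest and up to 3 with the smallest difference among those called, the brightest gene of a marker list, and the 10 genes most like the mean of the 10 members. The 10 genes and all lists were chosen with earlier results of these data known, so no pattern here is independent support. In bound arrays same-numbered samples of different states deviated together (r from 0.268 to 0.53 in 18 pairs), and so were treated as paired in an alternative fit; once the set of animals was taken off, r ran from -0.109 to 0.181, and in the unbound pools from 0.00118 to 0.0288 in 6 pairs.

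The precision is limited by the number of arrays. In data simulated from these arrays with 50 genes changed by each size, a log2 change of 1 was recovered in 90% of genes for bound over unbound, 60% for waking over sleep in bound RNA, 0% for waking over sleep in unbound RNA and 36% for the interaction in waking, and a change of 2 in 100%, 96%, 38% and 78%. Fewer genes were changed there than were called in these data, which makes the adjusted threshold stricter. Pools and single animals were also given the same spread. The shares therefore hold for that setting and are not the precision of these data. Alternatives changed the probe set, the normalization, the filter on dim genes, the spread, the replicate block, the set of animals and the arrays in the fit, and left out each array in turn. Some genes of the lists were not analysed here.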

Additional observations from a re-analysis of the deposited data

Results flagged for a closer look

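In 30 sets of 6 bound arrays (10 genes, 3 states), 1 array stood far from the rest of its group by Dixon's ratio, which by chance happens in about 1 group in 20. It was sleep-deprived animal 3 for Abi3bp, at 3.69 with the nearest array at 3.17, where the gap was 0.658 of the range of the group.

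In 3 cases the state effect differed between bound and unbound RNA by the interaction test of limma. As the effect in bound minus that in unbound RNA, the log2 value was -3.09 for Fmod and -1.55 for Abi3bp in waking, and -1.38 for Abi3bp after sleep deprivation. Each rests on 2 unbound pools a state.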

How the results depend on the processing

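Single genes gave 3752 recomputed values, over 16 alternatives and 24 arrays left out in turn. Of these, 3624 stayed on the same side of the threshold, 45 passed it newly, 75 no longer passed and 8 reversed. Reversed means a change of sign where the value was called as reported or in the alternative. Values called in neither could change sign and are among the 3624. On the second probe set the reversed values were Dcn -0.35 for bound over unbound, -0.78 for it in waking and 0.47 for sleep deprivation over sleep in bound RNA, Col3a1 -0.39 for bound over unbound, -0.55 in sleep deprivation and -0.53 in sleep, and Col1a1 -0.17 in sleep. Fmod in waking was 1.40 in animals 1 to 3 alone. The cause was not tested. The count of genes called for sleep deprivation over sleep in bound RNA was 1 instead of 0 with the mean of probe sets, the second probe set, quantile normalization, centring and the set of animals as a term. Leaving out genes below the median level of the arrays fitted removed Lum, Abi3bp and Col3a1, and Col1a1 too where both fractions were fitted. Bound over unbound then gave 3 instead of 6 in sleep deprivation and 4 instead of 7 in waking. Waking over sleep and sleep deprivation over waking in bound RNA and both interactions gave 0. An intensity trend gave 1 instead of 0 in each unbound comparison, and so did the fit of all 24 arrays for waking and sleep deprivation over sleep. The interaction in sleep deprivation gave 2 instead of 1 with array weights, 3 with the replicate block and 0 with the mean of probe sets. Animals 4 to 6 alone gave 4 in waking, 0 for sleep deprivation over waking in bound RNA, and 1 and 0 for the interactions in waking and sleep deprivation; animals 1 to 3 alone gave 0 for all 3 of these last comparisons. Fmod by the probe set without the suffix x gave 1 instead of 2 interactions in waking, and 4 instead of 3 genes called between the sets of animals. Of the pairs of genes, 3 instead of 13 passed without the 2 farthest arrays. Leaving out 1 array gave 8 to 10 for bound over unbound, 4 to 7 in sleep deprivation, 4 to 7 in waking, 6 to 7 in sleep, 0 to 1 for sleep deprivation over sleep in bound RNA, and 0 to 2 for each interaction. The replicate block changed the call of 3 of the 10 genes, Dcn for bound over unbound in sleep (1.07, adjusted p = 0.0316) and Fmod and Col1a2 in the interaction of sleep deprivation, and no other. Over all genes the lowest and highest counts among these alternatives were 7148 and 13475 for bound over unbound (12627 as reported), 5645 and 10747 in sleep deprivation (9644), 5608 and 10239 in waking (9144) and 5655 and 11258 in sleep (9519). In bound RNA they were 216 and 4102 for sleep deprivation over sleep (2597), 86 and 3385 for waking over sleep (2039) and 51 and 2164 for sleep deprivation over waking (1244). For the interactions they were 25 and 1822 in waking (1018) and 9 and 1546 in sleep deprivation (890). In unbound RNA they were 0 and 1377 for sleep deprivation over sleep (341), 0 and 3101 for waking over sleep (1149) and 0 and 800 for sleep deprivation over waking (138), and 0 without any 1 pool, by limma. With the replicate block 3064 genes passed for waking over sleep and 1913 for sleep deprivation over waking in bound RNA, and 0 in each unbound comparison.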
